A study of Homo sapiens with 9 samples.

Results

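Sm proteins form the protein ring around the small nuclear RNAs of the spliceosome, and several of them are known substrates of the arginine methyltransferase PRMT5. The genes described here are the 7 Sm genes SNRPB, SNRPD1, SNRPD2, SNRPD3, SNRPE, SNRPF and SNRPG, together with COIL and GEMIN2, which act in the assembly and maturation of the same particles. Their probe sets were taken by name, through the gene symbols of the array platform's annotation, and not by their values. The genes themselves were chosen with earlier results of these data known. The platform carries 17 probe sets for these 9 genes, and 16 of them had values, out of 17466 probe sets with values once control probe sets were left out. The probe set without values, 231112_at, is 1 of 3 for SNRPE. Every probe set used here carried a single gene symbol.

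RNA was measured on 9 Affymetrix arrays of the human fibrosarcoma cell line HT1080, with 3 arrays, called biological replicates in the series, in each of 3 groups. The first group was MTAP+ cells that spent their last 48 hours with 10 µM of the inhibitor MT-DADMe-ImmA, the second MTAP+ cells without treatment, and the third MTAP- cells without treatment. MTAP is methylthioadenosine phosphorylase, the enzyme that breaks down methylthioadenosine, and MT-DADMe-ImmA is an inhibitor of it. How the MTAP+ cells were made, and whether they are a single clone, is not stated in the labels, so a difference between MTAP+ and MTAP- cells cannot be told apart from a difference between clones.

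Methylthioadenosine is known to inhibit PRMT5, which is why the PRMT5 pathway is of interest in cells without MTAP. PRMT5, with its partner WDR77, places symmetric dimethyl groups on arginines in the tails of SmB, SmD1 and SmD3, the products of SNRPB, SNRPD1 and SNRPD3, and coilin, the product of COIL, carries the same mark. The SMN complex, of which the GEMIN2 product is a core subunit, then loads the Sm proteins onto the RNA as a ring, and coilin organises the Cajal bodies in which the particles mature. SNRPD2, SNRPE, SNRPF and SNRPG complete the ring and are not counted among the classical substrates. The arrays measured the RNA of these genes, and neither the methylation nor the amount of the proteins.

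The start regions of 4 genes are printed here because these genes carry the contrasts described further on. SNRPF and SNRPD3 passed the test in MTAP+ against MTAP- cells once replicate number was added as a block, whereas SNRPB and GEMIN2 were not called in any comparison. SNRPE passed there too, with and without the block. Its window, not printed, lay 248 bases from the gene start and held a motif searched for. The 4 printed lines are therefore not a contrast of motifs between called and uncalled genes. Each line is the 250 bases before the gene start, from RefSeq on GRCh38.p14, 5′ to 3′ on the strand of the gene, with any motif searched for in capitals. SNRPF lies on the plus strand at chr12:95858702-95858951, SNRPD3 on the plus strand at chr22:24555400-24555649, SNRPB on the minus strand at chr20:2470790-2471039 and GEMIN2 on the plus strand at chr14:39114073-39114322.
SNRPF: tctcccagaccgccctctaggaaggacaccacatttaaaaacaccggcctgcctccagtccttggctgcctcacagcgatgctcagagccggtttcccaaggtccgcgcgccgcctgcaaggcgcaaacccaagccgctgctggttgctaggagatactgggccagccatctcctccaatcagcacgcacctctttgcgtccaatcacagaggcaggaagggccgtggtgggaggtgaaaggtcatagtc
SNRPD3: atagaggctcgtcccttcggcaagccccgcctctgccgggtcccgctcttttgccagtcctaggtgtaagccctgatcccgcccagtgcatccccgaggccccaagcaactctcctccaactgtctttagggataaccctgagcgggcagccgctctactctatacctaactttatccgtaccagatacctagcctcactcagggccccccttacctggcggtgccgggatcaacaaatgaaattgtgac
SNRPB: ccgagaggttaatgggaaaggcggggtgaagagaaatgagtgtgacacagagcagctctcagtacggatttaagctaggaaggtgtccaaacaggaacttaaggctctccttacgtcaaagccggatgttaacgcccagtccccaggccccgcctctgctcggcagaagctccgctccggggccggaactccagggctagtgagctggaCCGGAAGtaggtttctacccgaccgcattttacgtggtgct
GEMIN2: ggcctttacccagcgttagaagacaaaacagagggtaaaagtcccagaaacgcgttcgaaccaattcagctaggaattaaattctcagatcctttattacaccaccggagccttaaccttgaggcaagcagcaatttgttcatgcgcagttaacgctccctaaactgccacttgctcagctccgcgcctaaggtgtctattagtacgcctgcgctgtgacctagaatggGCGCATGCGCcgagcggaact

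Windows were found for 8 of the 9 genes, SNRPD1 being the exception, and for 6 of them a window lay at the gene start. The motifs searched on both strands were CACGTG, the E-box bound by MYC, GCGC, a pair of any bases and GCGC for NRF1, CCGGAAG for ETS factors and AAGATGGCG for YY1. The ETS letters began 41 bases before the SNRPB start and the NRF1 letters 21 bases before the GEMIN2 start, and no motif overlapped another in the windows shown. Counting every window of a gene, the ETS letters were found in SNRPB, SNRPD2, SNRPE and SNRPG, 4 of the 8 genes, and in 8.52% of all 35116 windows. Among windows at the gene start, only those of SNRPB and SNRPD2 held them. Those of SNRPE and SNRPG lay 248 to 516 bases from the gene start. The NRF1 letters were found in GEMIN2 and, in a window 363 bases from the gene start, in SNRPD2, against 7.16% of all windows. The E-box and YY1 letters were found in 0 of the 8 genes, against 6.34% and 0.652% of all windows. These matches describe letters in a window and not bound sites, and several of these genes have more than 1 window. The counts of genes take any window of a gene and the percentages are per window, so they are not like for like.

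The MTAP probe sets followed the labels: 216685_s_at averaged log2 11.39 ± 0.14 in inhibitor-treated cells, 11.63 ± 0.07 in MTAP+ cells and 3.96 ± 0.10 in MTAP- cells (SD, n = 3 each). Of 10 mesenchymal and fibrosarcoma markers, 8 had values, including VIM, FN1 and SPARC, whereas 0 of 6 epithelial, 0 of 5 blood, 0 of 5 endothelial or muscle and 0 of 3 liver markers did. NEFL was the 1 of 4 neural or melanocyte markers with values. As a sign of RNA quality, the difference between the 5′ and 3′ control probe sets of ACTB averaged -1.64 ± 0.66 in inhibitor-treated cells, -1.43 ± 0.45 in MTAP+ cells and -2.50 ± 0.90 in MTAP- cells on the log2 scale (SD, n = 3 each). MTAP- replicate 3 stood apart at -3.52, against -1.81 and -2.17 on the other MTAP- arrays. It was the lowest array of its group for 208821_at and 213175_s_at of SNRPB, 215450_at of SNRPE, 203653_s_at of COIL and 205063_at of GEMIN2. It was the highest of its group for 202691_at of SNRPD1, for SNRPD2, for SNRPG and for 211115_x_at of GEMIN2. None of the 3 pairwise differences between groups in the ACTB control passed an exact two-sided permutation test (p = 0.2 for MTAP+ against MTAP-, 0.7 for inhibitor against MTAP+, 0.4 for inhibitor against MTAP-), but 3 arrays against 3 cannot give a p below 0.1. With the ACTB difference as a covariate, 0 probe sets of the 9 genes passed the threshold in any comparison. The differences that had passed without it kept their sign and about their size with larger standard errors: -0.37 ± 0.13 for 203316_s_at of SNRPE in MTAP+ against MTAP- cells, and -0.61 ± 0.20 for 202691_at of SNRPD1 and -0.38 ± 0.16 for SNRPF in inhibitor-treated against MTAP- cells. The part of RNA quality in the results was not tested further.

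All values are log2 RMA values, so a positive difference means a higher signal in the group named first. Differences were tested with limma, an adjusted p (Benjamini-Hochberg over all 17466 probe sets) under 0.05 is called a change, and errors of differences are the standard errors of the fit. Intervals are the fit's own 95% intervals, not adjusted for the number of probe sets. RNA came from whole cultures, so less RNA per cell and fewer cells with the RNA cannot be told apart. Levels are compared between groups for the same probe set and never between probe sets. All 16 probe sets lay above log2 of 100 on every array, the lowest value being 7.01. Of the 16 names, 6 end in _s_at and 3 in _x_at, marks that the platform gives to probe sets which may also match other transcripts. The 3 comparisons share groups, so their results are not independent of each other.

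**Figure D1:**
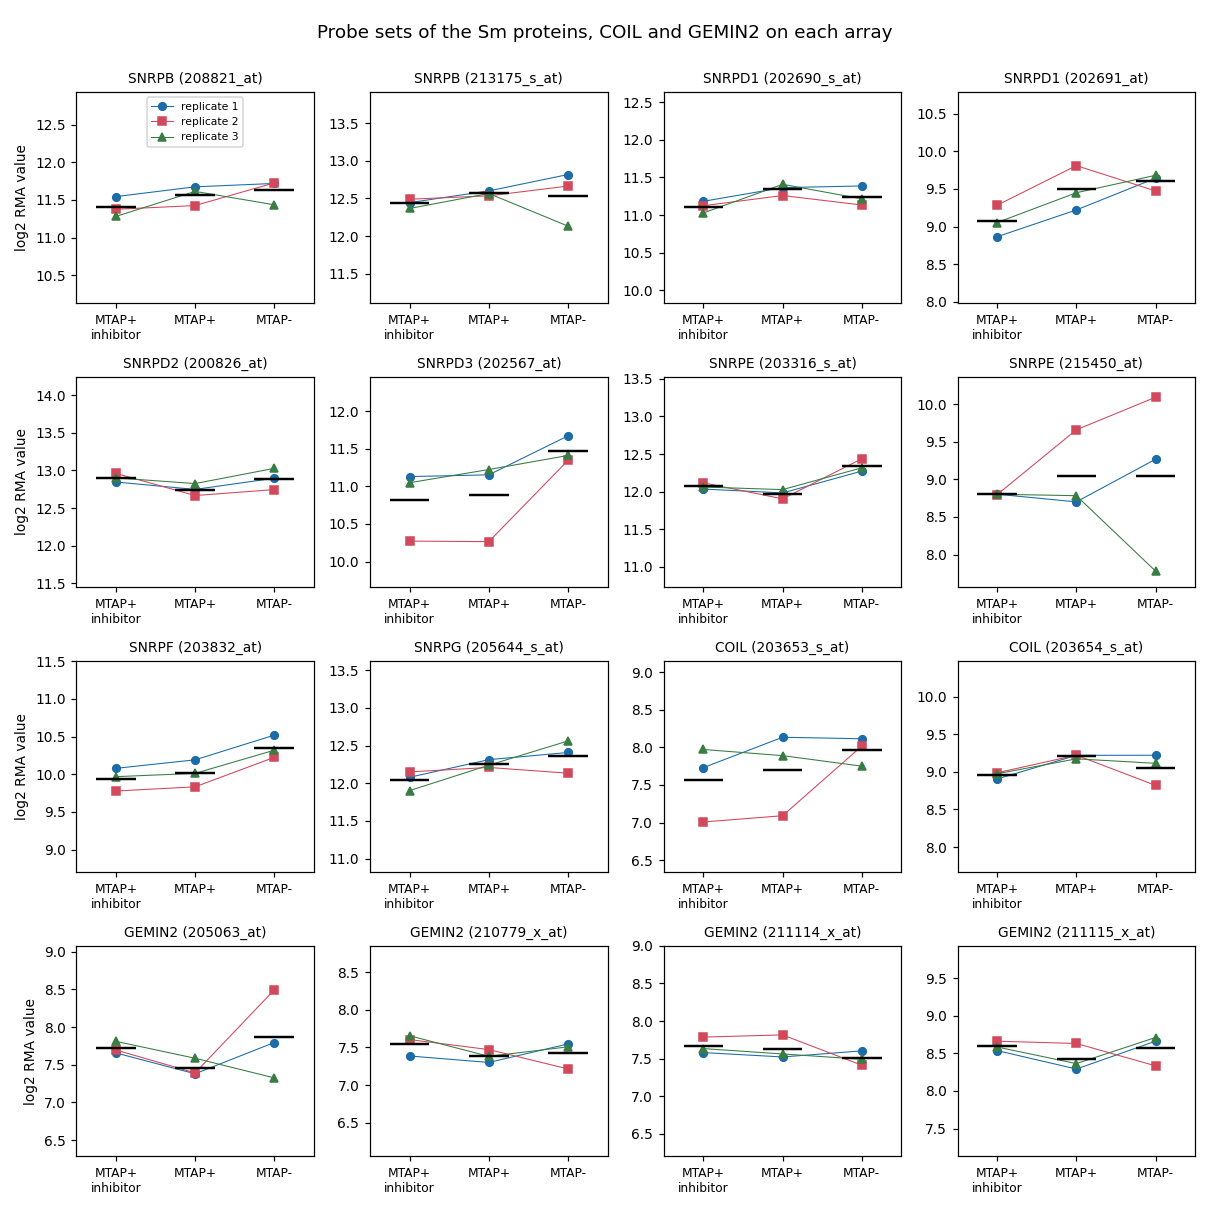
Log2 RMA value (vertical axis, of equal span in every panel) of each of the 16 probe sets on the 9 arrays, with inhibitor-treated MTAP+, MTAP+ and MTAP- cells from left to right, points joined by replicate number and black bars at the group means. SNRPF and the 203316_s_at probe set of SNRPE are highest on all 3 MTAP- arrays, and replicate 2 of the inhibitor-treated and MTAP+ groups is low for SNRPD3 and for 203653_s_at of COIL.

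MTAP+ cells were set against MTAP- cells to ask what the enzyme's presence goes with. SNRPE fell: its probe set 203316_s_at was lower in MTAP+ cells by 0.37 ± 0.09 on the log2 scale, a fold of 1.29 (adjusted p = 0.0288, limma). It was the only 1 of the 16 probe sets to pass, and it was lower, whereas 14.8% of all probe sets passed and 4.77% passed as lower. With replicate number as a block, 3 of the 16 were lower, now also SNRPD3 and SNRPF, where 21.6% of all probe sets passed and 7.38% passed as lower. On the point estimates alone 11 of the 16 were below 0, against 44.3% of all probe sets, with a median of -0.11 against 0.04 for all probe sets. Several of the 16 belong to the same gene. With each gene taken once, by its probe set of highest mean, 6 of 9 were below 0. The groups did not overlap for 3 of the 16, all lower in MTAP+ cells, against 33.7% of all probe sets in either direction and 13.5% lower.

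Inhibitor-treated MTAP+ cells were set against MTAP+ cells to ask what blocking the enzyme for 48 hours does. None of the 16 probe sets passed the threshold of the limma test, where 10.3% of all probe sets did, and none passed with the replicate block, where 15.6% did. At an unadjusted p under 0.05 there was 1, the probe set 202691_at of SNRPD1, with a log2 difference of -0.43 ± 0.16 (adjusted p = 0.131). The 16 probe sets had a median difference of -0.10, against -0.02 for all probe sets, with 10 below 0, against 52.7% of all probe sets. With each gene taken once, 6 of 9 were below 0. The groups did not overlap for 3 probe sets that were higher and 4 that were lower with the inhibitor, against 33.2% of all probe sets, 15.2% higher and 18.1% lower.

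Inhibitor-treated MTAP+ cells differ from MTAP- cells both in the enzyme and in the treatment, so this comparison cannot tell the 2 apart. Here SNRPD1 and SNRPF fell, by 0.53 ± 0.16 in 202691_at (adjusted p = 0.0355) and by 0.41 ± 0.13 in 203832_at (adjusted p = 0.0418, limma). These were 2 of the 16 probe sets, both lower, where 30.7% of all probe sets passed and 13.3% passed as lower. The median of the 16 was -0.19, against 0.03 for all probe sets, and 12 were below 0, against 46.9% of all probe sets. With each gene taken once, 7 of 9 were below 0. The groups did not overlap for 4 of the 16, all lower with the inhibitor, against 50.6% of all probe sets, 23.1% lower. Counting calls in either direction without the block, the share of these probe sets was below that of all probe sets in all 3 comparisons. The calls among the 16 were all lower, and for lower calls alone this did not hold in MTAP+ against MTAP- cells. There 1 of the 16 was a larger share than the 4.77% of all probe sets, as were 3 of the 16 against 7.38% with the block. The first of these rests on 1 probe set. With centred arrays or repeated quantile normalisation, 1275 and 1229 of all probe sets were lower, against 834. The 1 of the 16, still called, was then no longer a larger share. In inhibitor-treated against MTAP- cells, 2 of the 16 was close to the 13.3% called lower. Whether these shares differ was not tested.

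**Figure D2:**
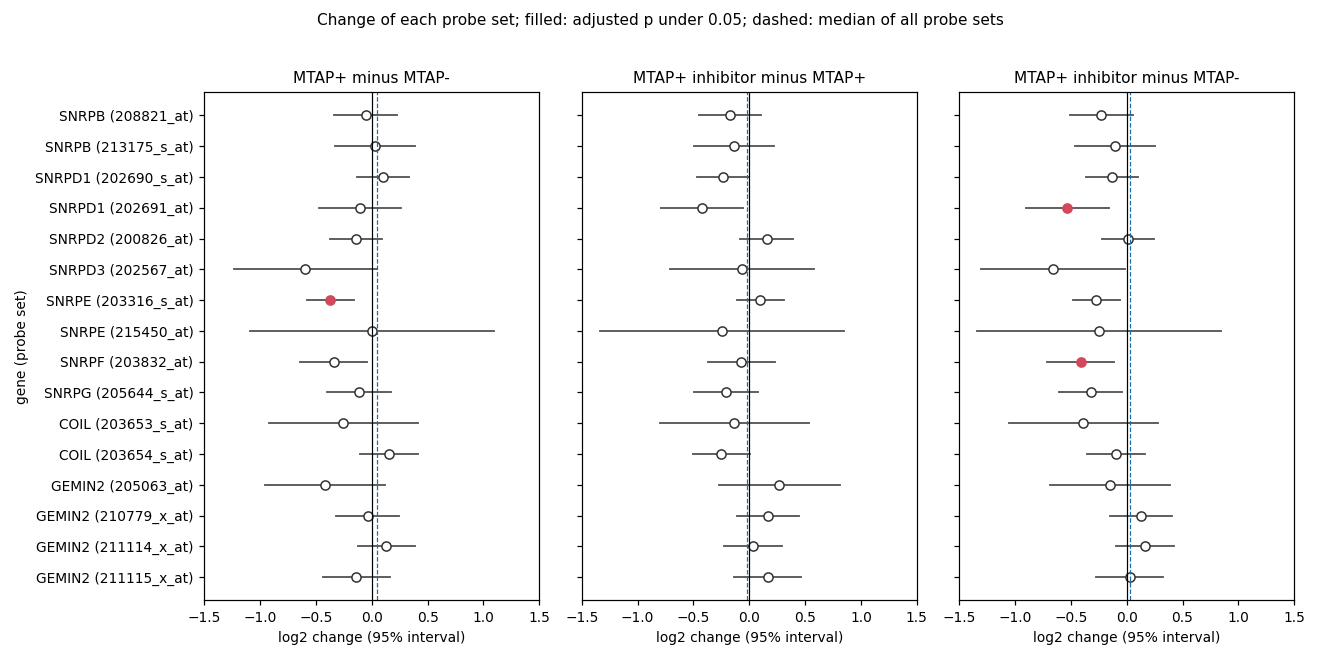
Log2 difference (horizontal axis) with its 95% interval for each of the 16 probe sets (vertical axis) in MTAP+ minus MTAP- (left), inhibitor-treated minus MTAP+ (middle) and inhibitor-treated minus MTAP- (right). Filled points had an adjusted p under 0.05, and the dashed line is the median of all 17466 probe sets. The filled points are SNRPE (203316_s_at) on the left and SNRPD1 (202691_at) and SNRPF on the right, all below 0.

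SNRPD3 encodes SmD3, which pairs with SmB and carries methylated arginines. Its probe set 202567_at read 11.13, 10.27 and 11.05 on the inhibitor-treated arrays, 11.15, 10.27 and 11.22 on the MTAP+ arrays, and 11.67, 11.35 and 11.41 on the MTAP- arrays. Both groups of MTAP+ cells lay below every MTAP- array, and replicate 2 stood well below the other two in each of them, but was close to replicate 3 in MTAP- cells. The difference between MTAP+ and MTAP- cells was -0.59 ± 0.29 with an adjusted p of 0.187, and -0.59 with an adjusted p of 0.0383 when replicate number was a block. Within numbers, MTAP+ was lower than MTAP- by 0.52, 1.08 and 0.19 for replicates 1, 2 and 3, so the size rests largely on replicate 2. Without MTAP+ replicate 2 the difference was -0.29 (adjusted p = 0.436), and without the 3 arrays numbered 2 it was -0.35 (adjusted p = 0.136). The inhibitor-treated cells differed from MTAP+ cells by -0.06 (95% interval -0.71 to 0.58) and from MTAP- cells by -0.66 ± 0.29 (adjusted p = 0.111), a difference that was called without MTAP+ replicate 2 (adjusted p = 0.0431).

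SNRPB encodes SmB and SmB′, the other classical substrate in this pair. Its probe set 208821_at read 11.55, 11.38 and 11.28 in inhibitor-treated cells, 11.67, 11.43 and 11.61 in MTAP+ cells, and 11.72, 11.73 and 11.44 in MTAP- cells. The 3 groups overlapped, and their means of 11.40, 11.57 and 11.63 differed by less than the test could separate. The second probe set, 213175_s_at, read 12.44, 12.49 and 12.37 with the inhibitor, against 12.60, 12.54 and 12.57 in MTAP+ cells, and 12.82, 12.66 and 12.13 in MTAP- cells. Inhibitor-treated and MTAP+ arrays did not overlap here, but the difference was -0.13 ± 0.16 with an adjusted p of 0.645, and the MTAP- arrays spread over the range of both. No comparison of either probe set passed the threshold, the smallest adjusted p being 0.197.

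SNRPD1 encodes SmD1, the third classical substrate, and its 2 probe sets did not give the same result. 202691_at read 8.87, 9.28 and 9.05 in inhibitor-treated cells, 9.22, 9.81 and 9.45 in MTAP+ cells, and 9.64, 9.47 and 9.68 in MTAP- cells. Each inhibitor-treated array lay below the lowest MTAP- array, and the 3 same-numbered differences from MTAP+ cells were -0.36, -0.53 and -0.40. Against MTAP- cells the fall was 0.53 ± 0.16 (adjusted p = 0.0355), and the call was lost without MTAP- replicate 1 (adjusted p = 0.0893), 2 (0.053) or 3 (0.0966) and without inhibitor-treated replicate 1 (0.121) or 3 (0.094). 202690_s_at read 11.18, 11.12 and 11.03 in inhibitor-treated cells, against 11.36, 11.26 and 11.41 in MTAP+ cells, and 11.39, 11.13 and 11.22 in MTAP- cells. In this probe set the inhibitor-treated arrays lay below every MTAP+ array, by -0.23 ± 0.10 on average (adjusted p = 0.188), but overlapped the MTAP- arrays, where the difference was -0.13 (adjusted p = 0.36).

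SNRPD2 encodes SmD2, the partner of SmD1, and no comparison of it passed the threshold. Its probe set 200826_at read 12.85, 12.96 and 12.90 in inhibitor-treated cells, 12.75, 12.67 and 12.83 in MTAP+ cells, and 12.90, 12.75 and 13.03 in MTAP- cells. The inhibitor-treated arrays lay above every MTAP+ array, yet the difference of 0.16 ± 0.10 had an adjusted p of 0.378. The other 2 differences were -0.14 for MTAP+ against MTAP- cells and 0.01 for inhibitor-treated against MTAP- cells, with 95% intervals of -0.38 to 0.09 and -0.22 to 0.25.

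SNRPE encodes SmE, which joins the ring with SmF and SmG. Its probe set 203316_s_at read 12.04, 12.12 and 12.06 in inhibitor-treated cells, 11.98, 11.90 and 12.03 in MTAP+ cells, and 12.27, 12.44 and 12.32 in MTAP- cells. The MTAP- arrays were the highest 3 of the 9, and MTAP+ was lower than MTAP- by 0.29, 0.53 and 0.29 in the same-numbered pairs. The fall of 0.37 ± 0.09 (adjusted p = 0.0288) was lost without MTAP- replicate 2 (0.0772) or 3 (0.0681), without MTAP+ replicate 1 (0.0623), 2 (0.0529) or 3 (0.0531) and without inhibitor-treated replicate 1 (0.0511) or 3 (0.052), although the difference itself stayed between -0.32 and -0.41. Inhibitor-treated cells lay 0.27 ± 0.09 below MTAP- cells (adjusted p = 0.0523), which passed with centred arrays (0.0273), repeated quantile normalisation (0.0453), the percentile filter (0.0398), 1 probe set per gene (0.0381), array weights (0.0333), a mean-dependent prior (0.0146) or without MTAP+ replicate 2 (0.045). They lay 0.10 above MTAP+ cells (95% interval -0.11 to 0.31). The second probe set, 215450_at, read 8.80, 8.80 and 8.80 with the inhibitor, 8.70, 9.66 and 8.78 in MTAP+ cells, and 9.27, 10.09 and 7.78 in MTAP- cells. Its MTAP- arrays alone spanned more than 2 log2 units, and with a standard error of 0.49 it did not resolve a difference of the size seen in 203316_s_at.

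SNRPF encodes SmF. Its probe set 203832_at read 10.08, 9.78 and 9.97 in inhibitor-treated cells, 10.19, 9.83 and 10.01 in MTAP+ cells, and 10.52, 10.22 and 10.32 in MTAP- cells. Replicate 2 was the lowest of its group in all 3 groups, and the step between the groups was similar in every number: MTAP+ was below MTAP- by 0.33, 0.39 and 0.31. The difference of -0.34 ± 0.13 had an adjusted p of 0.113, which became 0.0278 with replicate number as a block. Inhibitor-treated cells were lower than MTAP- cells by 0.41 ± 0.13 (adjusted p = 0.0418). That call was lost without MTAP- replicate 1 (0.13) or 3 (0.0788), without MTAP+ replicate 3 (0.0581), without inhibitor-treated replicate 1 (0.0524), 2 (0.14) or 3 (0.0945) and without the 3 arrays numbered 2 (0.0748). Between inhibitor-treated and MTAP+ cells the difference was -0.07 (95% interval -0.37 to 0.23).

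SNRPG encodes SmG. Its probe set 205644_s_at read 12.08, 12.15 and 11.90 in inhibitor-treated cells, 12.31, 12.21 and 12.24 in MTAP+ cells, and 12.41, 12.13 and 12.56 in MTAP- cells. Every inhibitor-treated array was below every MTAP+ array, while MTAP- replicate 2 lay among the inhibitor-treated arrays. The difference from MTAP- cells was -0.32 ± 0.13 (adjusted p = 0.0816), and leaving out MTAP- replicate 2 gave -0.44 with an adjusted p of 0.0277. It also passed without the 3 arrays numbered 2 (0.035), with array weights (0.0279) and with a mean-dependent prior (0.0451). The difference from MTAP+ cells was -0.21 ± 0.13 (adjusted p = 0.326).

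COIL encodes coilin, the scaffold of Cajal bodies, and its probe sets disagreed. 203653_s_at read 7.73, 7.01 and 7.97 in inhibitor-treated cells, 8.13, 7.09 and 7.89 in MTAP+ cells, and 8.11, 8.02 and 7.75 in MTAP- cells. As for SNRPD3, replicate 2 was low in both MTAP+ groups and not in MTAP- cells. 203654_s_at read 8.90, 8.99 and 8.97 in inhibitor-treated cells, 9.22, 9.22 and 9.17 in MTAP+ cells, and 9.22, 8.82 and 9.11 in MTAP- cells, with no low replicate 2 in the MTAP+ groups. In this second probe set the inhibitor-treated arrays lay below every MTAP+ array, by -0.25 ± 0.12 on average (adjusted p = 0.201), and no comparison of either probe set passed the threshold.

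GEMIN2 encodes the subunit of the SMN complex that grips the Sm proteins before they are loaded, and it has 4 probe sets with values. 205063_at read 7.66, 7.70 and 7.81 in inhibitor-treated cells, 7.38, 7.39 and 7.59 in MTAP+ cells, and 7.80, 8.49 and 7.33 in MTAP- cells. The inhibitor-treated arrays lay above every MTAP+ array, and the difference of 0.27 ± 0.24 had an adjusted p of 0.521. The other 3, all ending in _x_at, had differences of 0.03 to 0.17 between inhibitor-treated and MTAP+ cells, -0.14 to 0.13 between MTAP+ and MTAP- cells, and 0.03 to 0.16 between inhibitor-treated and MTAP- cells. None of these 12 results for GEMIN2 passed the threshold.

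Across the 9 arrays SNRPD3 was correlated with SNRPF (Pearson r = 0.905) and with 203653_s_at of COIL (r = 0.901), values that share the low replicate 2 arrays and are given as descriptions. Between probe sets of the same gene r was 0.711 for SNRPB, 0.404 for SNRPD1, 0.106 for SNRPE and 0.006 for COIL. Among the 3 _x_at probe sets of GEMIN2 it was 0.541 to 0.815, and between these and its 205063_at it was -0.382 to -0.308. The 5 genes most like the mean standardised profile of the 7 Sm genes, among 9444 genes over the same 9 arrays, were ATP6V0E2 (r = 0.989), MMACHC (r = 0.968), EEF1AKMT1 (r = 0.966), COPS9 (r = 0.965) and KIF26A (r = 0.964). They were picked as the highest of many genes on these arrays, so their r values carry no test.

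The partners of the Sm proteins were followed through 7 lists, each gene by its probe set of highest mean. Several of these may also match other transcripts. The probe sets of WDR77, RIOK1, DDX20, SF3A3, SRSF1 and SRSF10 end in _s_at, and those of SF3B4 and SRSF7 in _x_at. Those of LSM1, LSM10, SNRPC and TOE1 carry neither mark. PRMT5 itself was not called in any comparison, with differences of -0.13 for MTAP+ against MTAP- cells, 0.01 for inhibitor-treated against MTAP+ cells and -0.11 for inhibitor-treated against MTAP- cells, each ± 0.15. Of the 5 methylosome genes, 2 fell in MTAP+ against MTAP- cells. RIOK1, an adaptor of PRMT5, fell by 0.69 ± 0.14 (adjusted p = 0.0122, and at most 0.0392 whichever array was left out), and WDR77, the obligate partner of PRMT5, by 0.52 ± 0.12 (adjusted p = 0.0196). The WDR77 call was lost without MTAP- replicate 1 (0.0554) or 2 (0.0584) or MTAP+ replicate 3 (0.0656). Of the same 5 genes 0 passed between inhibitor-treated and MTAP+ cells. Against MTAP- cells, WDR77 was lower in inhibitor-treated cells by 0.84 ± 0.12 (adjusted p = 0.00101, at most 0.00631 whichever array was left out) and COPRS, another adaptor, by 0.42 ± 0.11 (adjusted p = 0.0146, lost without inhibitor-treated replicate 2, 0.0521, or 3, 0.0615). The list medians were -0.20, 0.01 and -0.35 in MTAP+ against MTAP-, inhibitor against MTAP+ and inhibitor against MTAP- cells, against 0.04, -0.02 and 0.03 for all probe sets. The lists take 1 probe set per gene and the medians of all probe sets take every one. With 1 probe set per gene and the 40th percentile filter, the medians over all genes were 0.015, -0.0209 and -0.0015.

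Of the SMN complex, 6 of 9 listed genes had values, and SMN1, SMN2 and GEMIN8 did not have a probe set of their own with values. None passed in MTAP+ against MTAP- cells (1 lower with the replicate block) or in inhibitor-treated against MTAP+ cells (0 with the block), with medians of -0.22 and -0.14. In inhibitor-treated against MTAP- cells 3 fell, with a list median of -0.34. DDX20, the helicase Gemin3, fell by 0.51 ± 0.10 (adjusted p = 0.00565, at most 0.029 whichever array was left out) and GEMIN5, which recognises the small nuclear RNA, by 0.48 ± 0.12 (adjusted p = 0.0158, lost without MTAP- replicate 2, 0.0529, or inhibitor-treated replicate 3, 0.0653). GEMIN7 fell by 0.43 ± 0.13 (adjusted p = 0.0389), and its call was lost without MTAP- replicate 1 (0.0914) or 2 (0.11) and without inhibitor-treated replicate 2 (0.11) or 3 (0.136).

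LSm proteins form related rings on U6 RNA, on decaying messages and, for LSM10 and LSM11, in the U7 particle that processes histone RNA. Of 10 genes, 2 (3 with the replicate block) were lower in MTAP+ than in MTAP- cells: LSM8 by 0.36 ± 0.09 (adjusted p = 0.0302) and LSM1 by 0.32 ± 0.09 (adjusted p = 0.0475). LSM8 was lost without MTAP- replicate 2 or 3, MTAP+ replicate 1 or 3 or inhibitor-treated replicate 1 or 3 (0.0521 to 0.091), and LSM1 was lost whichever of the 9 arrays was left out (0.0528 to 0.146). LSM11 rose with the inhibitor against MTAP+ cells by 0.56 ± 0.10 (adjusted p = 0.0108, lost without inhibitor-treated replicate 3, 0.0581). It read 6.71, 6.74 and 6.78 with the inhibitor, 6.26, 6.03 and 6.26 in MTAP+ cells, and 6.37, 6.46 and 6.51 in MTAP- cells. Only the inhibitor-treated arrays exceeded 6.64, the lowest third-highest value of any probe set with values. LSM11 thus had values only through the group where it was high, so its rise is not independent of that selection. Against MTAP- cells 4 fell, among them LSM10 by 0.61 ± 0.14 (adjusted p = 0.0111) and LSM1 by 0.59 ± 0.09 (adjusted p = 0.00154), both still called whichever array was left out. LSM5 fell by 0.37 ± 0.10 (adjusted p = 0.0263, lost without MTAP- replicate 1 or 3 or any 1 inhibitor-treated array, 0.0507 to 0.0953). The medians were -0.23, -0.02 and -0.26 in the 3 comparisons, and the one near 0 turned to 0.0006 with centred arrays and to 0.0142 with repeated quantile normalisation.

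Among 15 U1 and U2 proteins, 2 (3 with the replicate block) fell in MTAP+ against MTAP- cells: SF3A3 by 0.65 ± 0.12 (adjusted p = 0.00843, at most 0.0309 whichever array was left out) and SNRPC by 0.44 ± 0.11 (adjusted p = 0.0244, lost without MTAP- replicate 1, 0.0599, or 3, 0.0827, or MTAP+ replicate 3, 0.0556). SNRPA rose with the inhibitor against MTAP+ cells by 0.45 ± 0.12 (adjusted p = 0.0458), a call that was lost with the replicate block (0.0527; 1 other gene was then lower) and without MTAP- replicate 1, MTAP+ replicate 1 or 2 or any 1 inhibitor-treated array (0.0701 to 0.153). Against MTAP- cells 4 fell, among them SNRPA1 by 0.54 ± 0.13 (adjusted p = 0.0108) and SNRPC by 0.48 ± 0.11 (adjusted p = 0.00845), both still called whichever array was left out. SF3B4 fell by 0.65 ± 0.18 (adjusted p = 0.0243, lost without MTAP- replicate 1 or 2 or inhibitor-treated replicate 1 or 3, 0.0514 to 0.0888). The medians were -0.10, 0.02 and -0.23. Of 17 proteins of the U4/U6.U5 tri-snRNP, PPIH fell in MTAP+ against MTAP- cells by 0.49 ± 0.14 (adjusted p = 0.0456, lost for every array left out except MTAP+ replicate 1, 0.0554 to 0.12). None passed between inhibitor-treated and MTAP+ cells (1 higher with the replicate block), and SNRNP27 fell against MTAP- cells by 0.40 ± 0.11 (adjusted p = 0.0266, lost without MTAP- replicate 2 or any 1 inhibitor-treated array, 0.0615 to 0.0826). Their medians of -0.09, -0.02 and -0.10 lay nearer to those of all probe sets.

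Among 15 measured proteins of the RNA cap, transport and the Cajal body, NOLC1 fell in MTAP+ against MTAP- cells by 0.45 ± 0.12 (adjusted p = 0.0343, lost for every array left out except MTAP+ replicates 1 and 3, 0.0534 to 0.0973). With the inhibitor, NCBP1, a subunit of the cap-binding complex, fell against MTAP+ cells by 0.48 ± 0.12 (adjusted p = 0.0294, lost without MTAP+ replicate 1 or 2 or inhibitor-treated replicate 1 or 3, 0.0672 to 0.114) and TOE1, a nuclease that trims small nuclear RNAs, by 0.48 ± 0.13 (adjusted p = 0.044, lost for every array left out except MTAP+ replicate 2, 0.052 to 0.132). With the replicate block 2 were also higher in that comparison. Against MTAP- cells, 3 fell and 1 rose: TOE1 was lower by 0.77 ± 0.13 (adjusted p = 0.00199) and WRAP53, which guides RNAs to the Cajal body, by 0.55 ± 0.12 (adjusted p = 0.00822), both still called whichever array was left out. ZPR1, a partner of SMN, was higher by 0.45 ± 0.13 (adjusted p = 0.0295, lost without MTAP- replicate 1 or 2 or inhibitor-treated replicate 1 or 3, 0.0711 to 0.0979). The medians were -0.09, 0.01 and -0.20.

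SR proteins bind exons and steer splice-site choice, and they do not contain the Sm fold. Of 8 measured genes, SRSF5 rose in MTAP+ against MTAP- cells by 0.35 ± 0.09 (adjusted p = 0.0268, lost without MTAP- replicate 2 or 3, MTAP+ replicate 1 or 3 or inhibitor-treated replicate 3, 0.0503 to 0.0885), and 1 was lower with the replicate block. With the inhibitor against MTAP+ cells 2 fell (3 with the block). SRSF3 was lower by 0.58 ± 0.11 (adjusted p = 0.0146, lost without inhibitor-treated replicate 3, 0.0747), and SRSF7 by 0.48 ± 0.10 (adjusted p = 0.0158, lost without inhibitor-treated replicate 1, 0.0561, or 3, 0.0801). Against MTAP- cells 5 fell and 1 rose. SRSF1 was lower by 0.74 ± 0.12 (adjusted p = 0.00195), SRSF7 by 0.70 ± 0.10 (adjusted p = 0.000937) and SRSF10 by 0.59 ± 0.13 (adjusted p = 0.00705), all still called whichever array was left out. The medians were -0.21, -0.34 and -0.52, the last 2, from the comparisons with the inhibitor, being the lowest of the 7 lists. Of the 9 calls named from the lists in MTAP+ against MTAP- cells, 8 were lost with the ACTB covariate, 8 without the 3 arrays numbered 2 and 9 with the block and the covariate together. RIOK1, for example, was then at adjusted p = 0.0697, 0.05 (above the threshold before rounding) and 0.429, and SF3A3 at 0.0859, 0.034 and 0.343. Of 6 calls in inhibitor-treated against MTAP+ cells, 2, 6 and 1 were lost under the same 3 settings. Of 18 in inhibitor-treated against MTAP- cells, 4, 8 and 14 were lost, and WDR77 and TOE1 were called under all 3 settings. Without the arrays numbered 2, LSM10 (0.0509) and SNRPA1 (0.0502) were among those lost. With the block and the covariate, DDX20 (0.153), LSM1 (0.0765), SNRPA1 (0.131), SNRPC (0.128), WRAP53 (0.0906), SRSF1 (0.0768), SRSF7 (0.0548) and SRSF10 (0.139) were among those lost. Each of these differences kept its sign under the 3 settings. Whether the lists differ from all probe sets was not tested. The lists count each gene once and the shares that follow count every probe set, so they are not like for like. Over all probe sets, 10.0% were called higher and 4.77% lower in MTAP+ against MTAP- cells, 4.85% higher and 5.48% lower in inhibitor-treated against MTAP+ cells, and 17.4% higher and 13.3% lower in inhibitor-treated against MTAP- cells.

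**Figure D3:**
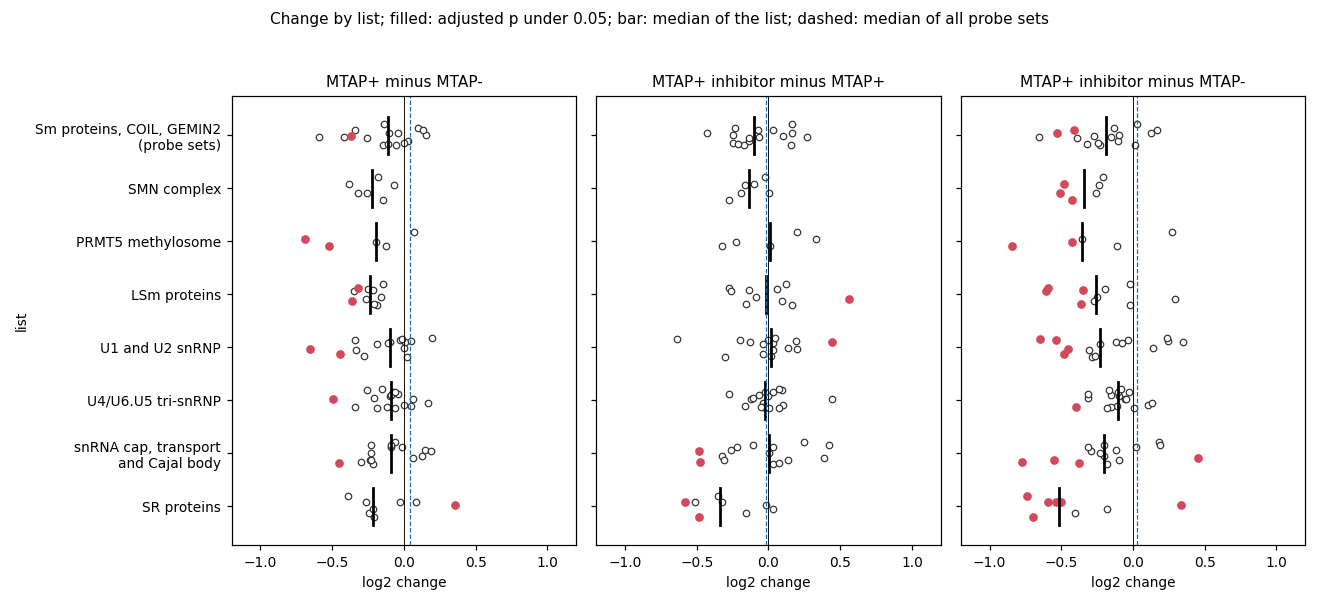
Log2 difference (horizontal axis) of each measured gene in the 7 lists, with the 16 probe sets of the Sm genes, COIL and GEMIN2 in the top line, in MTAP+ minus MTAP- (left), inhibitor-treated minus MTAP+ (middle) and inhibitor-treated minus MTAP- (right). Filled points had an adjusted p under 0.05, bars mark the median of a list and the dashed line the median of all probe sets. The bar of the SR proteins is the farthest left in the middle and right panels, at -0.34 and -0.52.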

How the data were processed

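Per the submitters' processing notes, the authors used RMA, with no version given, and the deposited values are log2 values. Of 54675 probe sets in the deposited table, 37201 lacked a value on at least 1 array and were not used. The lowest third-highest value of the rest was 6.64, so dim probe sets had been left out. Depth does not apply to arrays, and the 3 arrays per group limit the precision. Probe sets were named by the platform's annotation. A linear model with 3 group means was fitted to all 9 arrays and all 17466 non-control probe sets with limma 3.58.1 in R 4.3.3 (eBayes defaults), with Benjamini-Hochberg adjustment and 0.05 as the threshold; the script was tested on simulated data. Tables were handled with Python 3.11.15. Arrays of the same number deviated together for MTAP+ and MTAP- (r = 0.284, 0.225 and 0.248) and for inhibitor and MTAP+ (0.702, 0.594 and 0.321), so these numbers were taken to pair the arrays and the block is given beside those results where it moved a call or a count; for inhibitor and MTAP- (0.2, 0.008 and -0.006) they were not. The block was fitted as a single effect of replicate number over all 9 arrays. That assumes a shift by number common to all 3 groups, although inhibitor-treated and MTAP- arrays did not deviate together for every number. The labels do not say what the numbers share.

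The genes, the lists and the tests were chosen with earlier results of these data known. Named genes are every member, MTAP, up to 3 called genes with the largest change and up to 2 uncalled genes with the highest level per list and comparison, and the 5 genes most like the mean Sm profile; of the uncalled genes only PRMT5 is printed. Alternatives were the scaling of arrays, a 40th percentile filter, 1 probe set per gene, array weights, a mean-dependent prior, the ACTB covariate, leaving out _s_at and _x_at probe sets, the compared groups alone, the replicate block and leaving out each array; leaving out the 3 arrays numbered 2, and the block with the ACTB covariate, were added after the data were seen. The setting with 1 probe set per gene also applied the 40th percentile filter. Promoter windows came from RefSeq. P-values measure the spread between these arrays, which may be in part technical.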

Additional observations from a re-analysis of the deposited data

How the results depend on the processing

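For the 16 probe sets and 3 comparisons, 40 of 48 results were not called in the fit or under any alternative, and 0 reversed; 20 changed sign without a call. All 3 called results were lost under at least 1 alternative, and 5 of the 45 uncalled ones were called under at least 1. In MTAP+ against MTAP- cells the probe sets called, 2585, numbered 1337 with 1 probe set per gene, 851 with the ACTB covariate, 1501 without _s_at and _x_at probe sets, 1384 with only those 2 groups, 1628 without the arrays numbered 2 and 9 with the block and the ACTB covariate. The probe sets of the 9 genes called, and the genes called, numbered 1, 3 with the replicate block and 0 under each of the other alternatives just named except 1 probe set per gene. Without _s_at and _x_at probe sets that call was bound to be lost, because the called probe set of SNRPE, 203316_s_at, was itself left out. That setting and the one with 1 probe set per gene (at most 9453) tested fewer than 17466 probe sets. Their totals, here and in the other comparisons, therefore cannot be read as a loss of calls. In inhibitor-treated against MTAP+ cells the count of 1804 became 2725 with the replicate block, 1042 with 1 probe set per gene and 172 without the arrays numbered 2, and 0 of the 16 were called throughout. In inhibitor-treated against MTAP- cells the count of 5361 became 2614 with 1 probe set per gene, 3120 without _s_at and _x_at probe sets and 1082 with the block and the ACTB covariate; those of the 16 numbered 2, 4 with array weights or a mean-dependent prior, and 0 with the ACTB covariate with or without the block. The differences stayed about as large there: SNRPD1 (202691_at) was at -0.61 with the covariate and -0.69 with the block too, against -0.53, and SNRPF at -0.38 and -0.44, against -0.41. There the replicate block alone, without a pairing shown, gave 6499 in all (37.2%) and 3 of the 16 (SNRPD1, SNRPD3 and SNRPF). Leaving out 1 array gave 1458 to 2808, 452 to 1836 and 3562 to 6031 probe sets in the 3 comparisons, and 0 to 1, 0 to 0 and 0 to 4 of the 16. Centring the arrays changed the split into higher and lower in MTAP+ against MTAP- cells to 1279 and 1275, against 1751 and 834, and in inhibitor-treated against MTAP- cells to 2545 and 2889, against 3031 and 2330; repeated quantile normalisation gave 1245 and 1229, and 2533 and 2905. The median of the 16 stayed below 0 in all 3 comparisons under both scalings. The causes of these shifts were not tested.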
